A study of Caenorhabditis elegans with 4 samples.

Results

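Of the 8050 regions at which trimethylated histone H3 lysine 4 (H3K4me3) was called in both samples of Caenorhabditis elegans late embryos, 511 held a peak of the chromatin protein CFP-1 that did not meet a peak of the other CFP-1 sample. These 511 regions, 6.35% of all H3K4me3 regions, are described here. They were chosen by the CFP-1 and H3K4me3 peak calls themselves: peaks of RC03 and RC04, the sample numbers of the study, were merged for each antibody where they shared at least 1 bp, intervals that contained a peak from each list were kept as regions, and the 511 were the H3K4me3 regions that overlapped a CFP-1 peak but no CFP-1 region. They are called unshared-call regions below. The 5017 H3K4me3 regions with a CFP-1 region (62.3%) are called shared-call regions, and the 2522 without any CFP-1 peak are called CFP-1-free. The latter name stands for no called peak, not for a lack of binding. All positions are in build ce10.

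All 4 samples came from whole late embryos of strain JA1597, aged for 3.5 hours at room temperature after bleaching of adults, and were cross-linked with formaldehyde. The strain carries cfp-1 fused to gfp, inserted at a Mos site on chromosome IV and driven by the dpy-30 promoter, so both antibodies were used in the same transgenic background. The labels do not say whether the endogenous cfp-1 gene was still present. CFP-1::GFP was precipitated with an anti-GFP serum and the mark with an anti-H3K4me3 antibody, with 2 samples each. No sample from a strain without the transgene was analysed here, and whole embryos mix all cell types, so a weak call cannot be assigned to few cells or to little binding per cell. The numbers RC03 and RC04 are not stated to mark chromatin extracts, nor cultures grown apart, and differences between samples of an antibody may be technical.

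CFP-1 is the worm CXXC finger protein, a subunit of the COMPASS complex, whose SET domain enzyme SET-2 methylates histone H3 at lysine 4. In mammals the CXXC finger binds DNA with unmethylated CpG. H3K4me3 is typically found around the starts of transcribed genes, and loss of CFP-1 is known to lower the mark in worms.

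The unshared calls were split almost evenly between both CFP-1 samples. A peak of RC03 alone was found at 238 of the 511 regions (46.6%, 95% exact binomial interval 42.2 to 51.0%) and a peak of RC04 alone at 257 (50.3%, 45.9 to 54.7%). The remaining 16 regions (3.13%, 1.80 to 5.04%) held peaks of both lists that did not share a base pair. By the choice of the regions no comparison can be read from these counts. Over all H3K4me3 regions 64.9% overlapped a CFP-1 peak of RC03 and 64.9% a peak of RC04. One CFP-1 peak was present in 482 of the 511 regions (94.3%), 2 in 23, 3 in 5 and 5 in 1. Among regions called in 1 list only, the RC04 share was 51.9% (47.4 to 56.4%). It lay between 45.9% on chromosome II (35.0 to 57.0%) and 62.3% on chromosome I (49.8 to 73.7%), with intervals that overlapped on all 6 chromosomes.

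The CFP-1 peaks behind these calls were weak and narrow. The score is the authors' own value for a peak, in −log10 units, and is given here with its percentile rank within its list. On the unshared-call regions the 262 peaks of RC03 had scores from 1.67 to 14.4 with a median of 4.94, and the 277 peaks of RC04 had scores from 1.92 to 15.1 with a median of 4.70. Their median ranks were 17.3 and 17.5. Peaks belonging to CFP-1 regions, in contrast, had median scores of 16.3 in RC03 and 15.9 in RC04. The score ranges overlapped widely all the same: 46.2% of the RC03 peaks and 48.5% of the RC04 peaks of CFP-1 regions scored below the highest peak on an unshared-call region. Only 4 of the 262 and 6 of the 277 peaks lay above their list's median. Median peak width was 173 bp in RC03 and 174 bp in RC04, against 303 and 304 bp in CFP-1 regions. Other kinds of peak in no CFP-1 region were about as narrow, with medians between 159 and 180.5 bp.

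**Figure D1:**
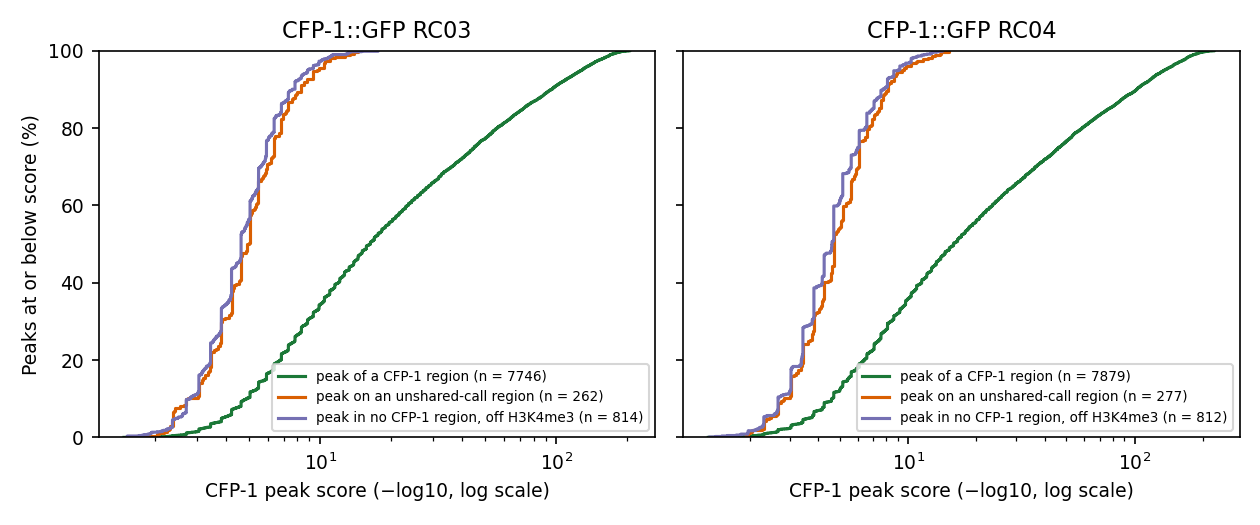
Cumulative share of CFP-1::GFP peaks (y axis, %) at or below a score (x axis, −log10 units, log scale) in RC03 and RC04, for peaks of CFP-1 regions (green), peaks on the 511 unshared-call regions (orange) and peaks in no CFP-1 region and off H3K4me3 (purple). The orange curves, with medians of 4.94 and 4.70, run close to the purple ones and left of the green ones, whose medians are 16.3 and 15.9.

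Peaks in no CFP-1 region had much the same scores wherever they lay. Those off any H3K4me3 peak had a median of 4.62 in RC03 (814 peaks) and 4.62 in RC04 (812 peaks). Those on H3K4me3 regions that also held a CFP-1 region had medians of 4.23 and 4.26. Those on H3K4me3 intervals called in 1 list only, and on no H3K4me3 region, had medians of 5.04 in RC03 (138 peaks) and 4.26 in RC04 (86 peaks). The medians on the unshared-call regions, 4.94 and 4.70, were within 1 unit of each of these. In the lowest 10% of CFP-1 scores, 8.79% of the RC03 peaks and 8.42% of the RC04 peaks lay on unshared-call regions. In the sixth decile these shares were 0.434% and 0.648%, and no peak of the top 40% of either list lay on one. Because the lack of a partner peak chose the regions, these values describe the choice and were not tested.

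Within broad ranges of CFP-1 rank, a peak was more often part of a CFP-1 region when it lay on H3K4me3. Of the RC03 peaks with a rank above 20 and up to 40, 80.9% (78.1 to 83.5%) were so on H3K4me3 regions and 69.2% (65.9 to 72.3%) off the mark. For RC04 the values were 81.2% (78.4 to 83.7%) and 69.6% (66.3 to 72.7%). With ranks of 20 or lower, the shares were 55.4% and 47.8% in RC03, and 62.7% and 46.5% in RC04. Scores were not matched within these ranges, where the share itself rose with the score. Over all RC03 peaks it was 67.3% in the third decile and 82.1% in the fourth. The part of score in the differences was not tested. Among peaks on H3K4me3 regions the strength of the mark was not accompanied by such a difference. For CFP-1 peaks with a rank of at most 30, the share in a CFP-1 region was 61.1% in RC03 and 67.3% in RC04 at H3K4me3 ranks up to 50, and 62.2% and 68.2% at H3K4me3 ranks above 75. Intervals of these shares overlapped within each list.

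H3K4me3 at the unshared-call regions lay between the other classes. In RC03 the H3K4me3 score ran from 1.63 to 108.7 with a median of 7.41 and quartiles of 4.71 and 13.1. In RC04 it ran from 2.08 to 95.1 with a median of 8.29 and quartiles of 4.99 and 13.4. CFP-1-free regions had medians of 5.21 and 5.23, and shared-call regions had medians of 33.3 and 32.8. As percentile ranks, the medians of the unshared-call regions were 52.2 and 56.7, a mean of 54.4 ± 3.20 (SD, n = 2 lists). They were higher than in CFP-1-free regions by 12.6 in RC03 and 16.3 in RC04, and lower than in shared-call regions by 25.1 and 22.3. Both differences had the same sign in both lists. The SD of the difference between the lists was 2.61 for the former and 1.93 for the latter. An exact sign-flip permutation test over the lists gave a two-sided p of 0.5 for each, the smallest that 2 lists allow. The quartile ranges of neighbouring classes overlapped in both lists.

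**Figure D2:**
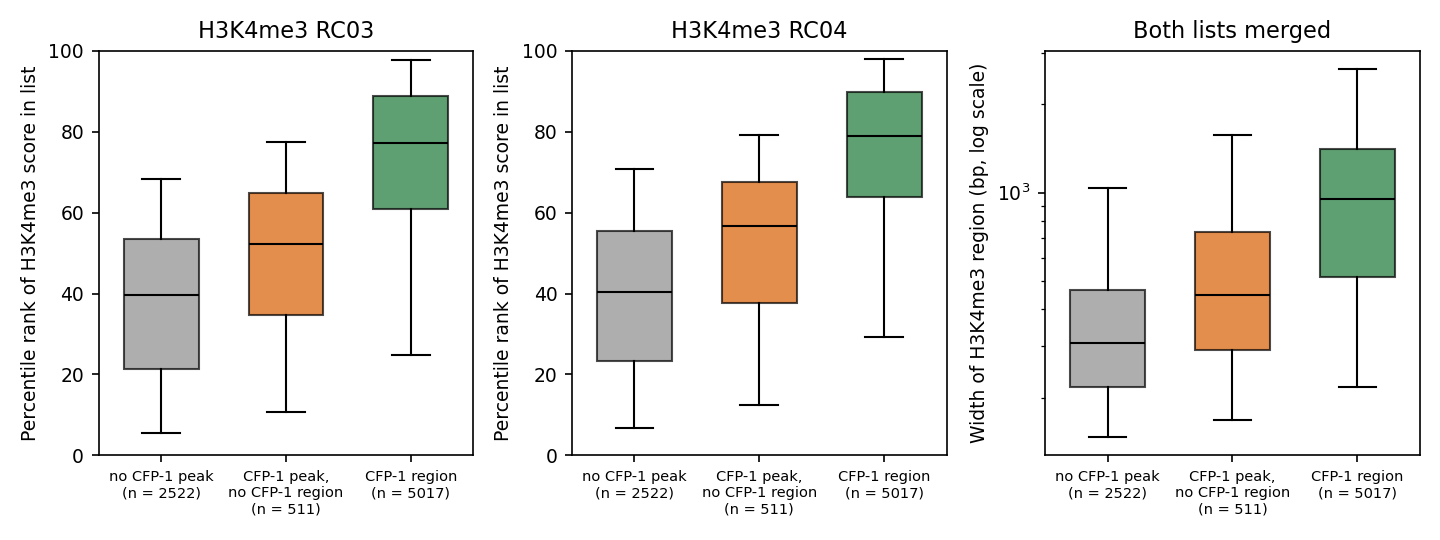
H3K4me3 percentile rank within RC03 and RC04 (y axis, 0 to 100) and region width (y axis, bp, log scale) in the 3 classes of H3K4me3 regions; boxes span the quartiles, lines are medians and whiskers reach the 5th and 95th percentiles. The unshared-call regions (orange) have medians of 52.2, 56.7 and 447 bp, between the CFP-1-free (grey) and shared-call (green) regions.

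Read against all regions, the unshared-call regions were less often strongly marked. A rank above the list median in both H3K4me3 lists was held by 235 of the 511 (46.0%, 41.6 to 50.4%), against 60.4% of all 8050 regions. For CFP-1-free regions the share was 21.7% (20.1 to 23.4%), and for shared-call regions 81.4% (80.3 to 82.4%). When all regions were cut into deciles of the mean H3K4me3 rank, the share of unshared-call regions was 6.34% in the lowest decile, rose to 12.5% (10.3 to 15.0%) in the fifth and was 0.248% (0.0301 to 0.895%) in the highest. The CFP-1-free share fell or stayed level along these deciles, from 75.3% to 0.124%, and the shared-call share rose at each step, from 18.4% to 99.6%. In the upper deciles regions with an unshared call and with none were both rare, at 12 and 13 of 805 regions in the eighth decile, 7 and 1 in the ninth, and 2 and 1 in the highest.

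**Figure D3:**
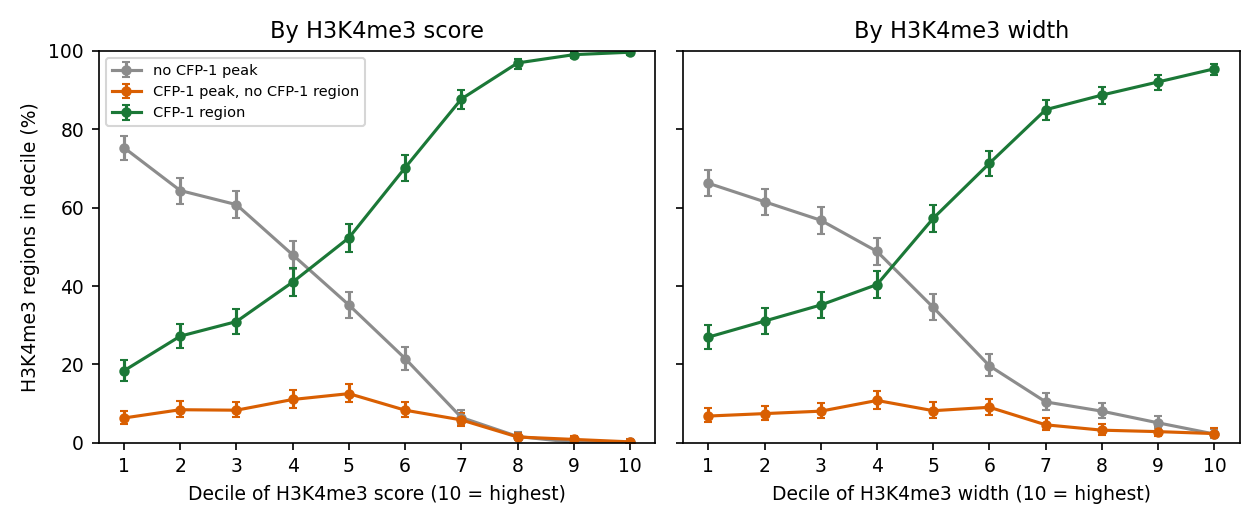
Share of H3K4me3 regions (y axis, %) in each class by decile of the mean H3K4me3 rank (left) and of region width (right), with 95% exact binomial intervals. The unshared-call share (orange) peaks at 12.5% in the fifth score decile and at 10.8% in the fourth width decile.

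Width followed the same order. The median width of the unshared-call regions was 447 bp (quartiles 290.0 and 736.5 bp, longest 4017 bp), against 308.5 bp for CFP-1-free and 955 bp for shared-call regions. The widest peak of a region had a median of 344 bp in RC03 and 340.0 bp in RC04, a mean of 342 ± 2.83 bp (SD, n = 2 lists). This was 113 and 123 bp more than in CFP-1-free regions, and in shared-call regions the medians were 846 and 841 bp (exact sign-flip permutation p = 0.5 for each, the smallest possible). A single H3K4me3 peak in each list made up 70.3% of the unshared-call regions, 81.0% of the CFP-1-free and 73.3% of the shared-call regions. Since width differed between the classes, the scores were also set side by side within ranges of width. Among regions over 250 and up to 500 bp wide, the median H3K4me3 ranks in RC03 and RC04 were 39.6 and 41.5 without a CFP-1 peak. They were 48.8 and 51.5 with an unshared call, and 54.5 and 57.5 with a shared one. Among those over 500 and up to 1000 bp they were 52.2 and 55.4, 62.2 and 63.8, and 73.9 and 75.7. The order was the same in the narrowest and the widest ranges. Above 1000 bp, the unshared-call medians were 66.3 and 70.2. They stood nearer to the CFP-1-free ones (62.9 and 65.0) than to the shared-call ones (87.6 and 88.8). Width was not matched within these ranges, and shared-call regions were up to 11637 bp wide. The part of width in these differences was not tested.

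Across the 511 regions the rank of the CFP-1 peak hardly followed that of the mark. The Spearman rho between both was 0.07, and it was -0.004 between the CFP-1 rank and region width; in narrow score ranges such as these a weak relation is no finding. H3K4me3 rank and width had a rho of 0.68. The H3K4me3 ranks of RC03 and RC04 had a rho of 0.74 over the unshared-call regions, 0.55 over CFP-1-free and 0.96 over shared-call regions. These values are across regions, which share libraries and are not independent replicates.

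A CFP-1 call in one sample went with no consistent rise of the H3K4me3 rank in the sample of the same number. In regions with a CFP-1 peak of RC03 alone, the H3K4me3 rank was higher in RC03 than in RC04 in 82 of 238 (34.5%), with a median RC03 minus RC04 difference of -3.80. In regions with a CFP-1 peak of RC04 alone, the H3K4me3 rank was higher in RC04 in 144 of 257 (56.0%, 49.7 to 62.2%), and the RC03 minus RC04 difference had a median of -1.30. Over both kinds, the same-numbered list had the higher rank in 226 of 495 regions (45.7%, 41.2 to 50.2%). The median of the RC03 minus the RC04 rank was also below 0 in the other classes, at -2.19 in CFP-1-free and -1.31 in shared-call regions. The H3K4me3 list of RC04 was longer, with 12343 peaks against 11357; its part in these differences was not tested.

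In most cases no peak of the other CFP-1 list lay close by. For the RC03 peaks on unshared-call regions, the nearest RC04 peak was a median of 1869 bp away (quartiles 858.75 and 5383 bp), and 183 of 262 (69.8%) had none within 1000 bp. For the RC04 peaks the median was 1752 bp and 190 of 277 (68.6%) had none within 1000 bp. A near miss, a peak of the other list within 100 bp, was found for 10 RC03 and 16 RC04 peaks. The lack of a partner peak chose these peaks, and gaps of other CFP-1 peaks are not given here. No trait particular to these regions can be read from the gaps between lists. A CFP-1 region lay within 100 bp of 18 of the 511 H3K4me3 regions (3.52%, 2.10 to 5.51%) and within 500 bp of 68 (13.3%, 10.5 to 16.6%). CFP-1-free regions had one within 100 bp in 5.71% (4.84 to 6.69%) and within 500 bp in 17.1% (15.7 to 18.7%). By these counts the unshared-call regions were not closer to CFP-1 regions. Within 1000 bp the shares were alike, at 29.5% of unshared-call and 29.9% of CFP-1-free regions. Larger gaps were shorter for the unshared-call regions, with medians of 2273 bp against 2478.5 bp and upper quartiles of 5841.5 bp against 8423.75 bp.

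The 16 regions with unmatched peaks of both CFP-1 lists were wide, with a median of 1148.5 bp and a range of 327 to 3273 bp. The smallest gap between peaks of RC03 and RC04 ran from 6 to 1984 bp, with a median of 93 bp, and was 100 bp or less in 9 of the 16. The one with the highest H3K4me3 rank lay on chromosome II (7568280 to 7571552), with H3K4me3 scores of 17.5 in RC03 and 26.2 in RC04. Its CFP-1 peaks, with scores of 2.37 in RC03 (7568899 to 7569149) and 8.64 in RC04 (7570839 to 7571012), were 1689 bp apart. On chromosome I (9003686 to 9004446), with H3K4me3 scores of 16.8 and 26.1, an RC04 peak of score 4.58 and an RC03 peak of score 2.43 were 91 bp apart. The next 2 lay on X, at 2922298 to 2924798 with a gap of 1984 bp and at 16386839 to 16388532 with a gap of 18 bp, and the fifth on I at 531459 to 532912 with a gap of 56 bp.

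Within the marked interval, the unshared CFP-1 peaks had no single place. Taking the highest-ranked CFP-1 peak of each region, 228 of 511 (44.6%, 40.3 to 49.0%) lay wholly inside the H3K4me3 region, and 7 peaks covered the whole region. The peak and the region overlapped by a median of 137 bp (quartiles 83.5 and 175 bp), and their midpoints were a median of 141.5 bp apart. The CFP-1 midpoint fell in the central 50% of the region in 198 cases (38.7%, 34.5 to 43.1%), in its outer parts in 171 (33.5%, 29.4 to 37.7%), and beyond its edge in 142 (27.8%, 23.9 to 31.9%). In shared-call regions, the highest-ranked CFP-1 region had its midpoint in the central 50% in 53.7% (52.3 to 55.1%) and beyond the edge in 25.1% (23.9 to 26.3%).

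This difference went in opposite directions in narrow and wide regions. Up to 250 bp, the central share was 24.2% (16.2 to 33.9%) for unshared and 12.8% (9.62 to 16.5%) for shared calls, and above that and up to 500 bp it was 29.9% (23.5 to 37.1%) and 14.3% (11.98 to 16.9%). Above 500 and up to 1000 bp the shares were 54.9% (46.7 to 62.9%) and 49.8% (47.2 to 52.4%). Above 1000 bp they were 47.2% (35.3 to 59.3%) and 76.2% (74.5 to 77.9%), so wide regions with an unshared call had it near the centre less often. CFP-1 regions are wider than single unshared peaks, and the part of that width in these shares was not tested.

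**Figure D4:**
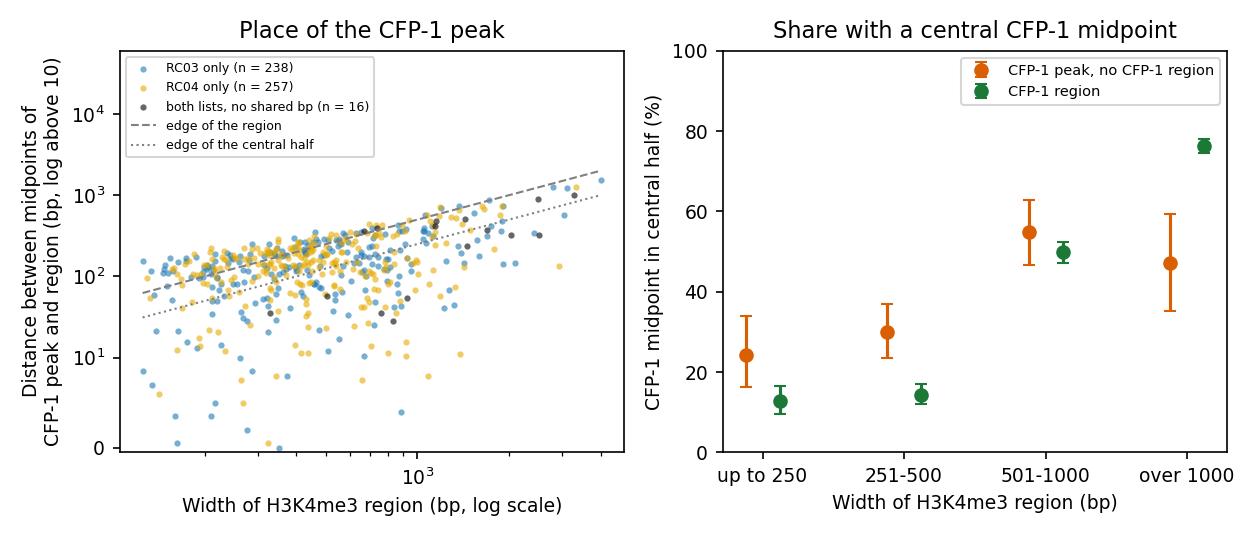
Left, distance between the midpoints of the CFP-1 peak and the H3K4me3 region (y axis, bp, linear below 10 and logarithmic above) against region width (x axis, bp, log scale) for the 511 unshared-call regions; points above the dashed line have their CFP-1 midpoint beyond the edge. Right, share of regions with the CFP-1 midpoint in the central 50% (y axis, %) by width, with 95% exact binomial intervals: 47.2% of unshared-call (orange) against 76.2% of shared-call (green) regions above 1000 bp.

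The unshared-call regions were found on all 6 chromosomes. They numbered 72 on I, 88 on II, 88 on III, 77 on IV, 86 on V and 100 on X. As a share of the H3K4me3 regions of a chromosome they were rarest on I, at 4.79% (3.77 to 5.999%), and most frequent on X, at 7.16% (5.87 to 8.64%), with the others between 6.28% and 6.83%. All intervals overlapped. Among regions without a CFP-1 region, the share with an unshared call was 17.2% (14.2 to 20.5%) on X and 16.8% (15.3 to 18.3%) on autosomes, so it was close to the autosomes where shared calls were set aside. By chromosome this second share was highest on III, at 21.9% (17.94 to 26.3%), and lowest on II, at 14.8% (12.01 to 17.87%). These intervals, of the extremes among 6 chromosomes, narrowly missed each other, and the difference was not tested. Regions on X had a median width of 442 bp and median H3K4me3 ranks of 49.8 in RC03 and 55.1 in RC04, against 447 bp, 53.0 and 57.5 on autosomes.

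On the autosomes, unshared-call regions lay in chromosome centres more often than CFP-1-free ones. The central 33.3% of the autosomes held 179 of 411 (43.6%, 38.7 to 48.5%) unshared-call regions and 663 of 2040 (32.5%, 30.5 to 34.6%) CFP-1-free regions. It held 39.9% (38.4 to 41.4%) of the shared-call regions and 2519 of all 6654 autosomal H3K4me3 regions (37.9%, 36.7 to 39.0%). The interval of the unshared-call regions overlapped those of the shared-call regions and of all regions. The central share was 41.6% (34.7 to 48.8%) for unshared-call regions called in RC03 alone and 44.8% (37.9 to 51.9%) for those called in RC04 alone. For all unshared-call regions it was above the CFP-1-free share on each of the 5 autosomes, from 37.5% against 34.1% on III to 50% against 33.1% on I. Of the unshared-call regions with mean H3K4me3 ranks under 50, 43.1% (35.8 to 50.6%) were central, and of those with ranks of 50 or above, 43.9% (37.4 to 50.6%). The same shares were 33.6% (31.2 to 36.1%) and 29.7% (26.0 to 33.6%) for CFP-1-free regions, and 34.4% (30.7 to 38.2%) and 40.9% (39.3 to 42.5%) for shared-call regions. Gene positions were not used here, so the part of gene density in this difference was not tested. The intervals cover counting error over regions, which are not replicates.

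**Figure D5:**
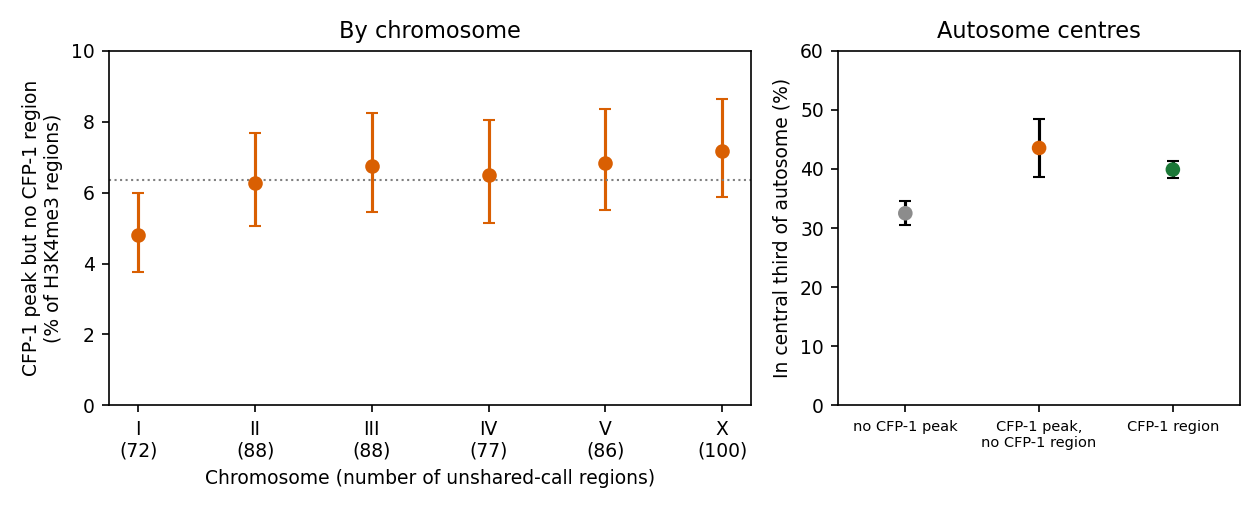
Left, unshared-call regions as a share of the H3K4me3 regions of each chromosome (y axis, %), with the genome-wide 6.35% as a dotted line. Right, share of autosomal regions in the central 33.3% of their chromosome (y axis, %) in the 3 classes; bars are 95% exact binomial intervals. The left panel runs from 4.79% on I to 7.16% on X. The right panel shows 43.6% for unshared-call, 32.5% for CFP-1-free and 39.9% for shared-call regions.

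Strongly marked regions with only an unshared CFP-1 call were few. A mean H3K4me3 rank of 75 or above was reached by 42 of the 511 (8.22%, 5.99 to 10.9%), against 2899 of all 8050 H3K4me3 regions. Among the other classes it was reached by 41 of 2522 CFP-1-free and 2816 of 5017 shared-call regions. Their CFP-1 peaks were no stronger than in the whole set, with a median score of 4.87 against 4.97. These 42 regions had a median width of 870.5 bp, and 37 of them (88.1%, 74.4 to 96.0%) enclosed the CFP-1 peak. Of all 511 regions, with a median width of 447 bp, 44.6% did so. The part of width in this difference was not tested. Of the 42, 18 were called in RC03 and 24 in RC04.

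The most strongly marked one lay on chromosome III (3704502 to 3705825), with H3K4me3 scores of 108.7 in RC03 and 95.1 in RC04, at a mean rank of 99.2. Its CFP-1 peak was in RC03 alone (3705095 to 3705322), scored 6.83, and lay 228 bp wide wholly inside the marked region. The nearest CFP-1 region was 828 bp from its edge. On X, the region at 5635977 to 5636813 had H3K4me3 scores of 84.4 and 78.5 and a CFP-1 peak of score 6.90 in RC04 alone. On V, the region at 9991155 to 9992487 had H3K4me3 scores of 58.9 and 78.4 and an RC04 peak of score 3.25. On II, the region at 13641379 to 13641867 had H3K4me3 scores of 76.9 and 58.5, and its RC04 peak scored 2.05, at rank 0.632 close to the lower limit of the list. The fifth, on IV (11651809 to 11652796), had H3K4me3 scores of 64.5 and 61.9 and an RC04 peak of score 8.20. These 5 regions were chosen for their H3K4me3 rank, so high H3K4me3 scores were set in advance. Their CFP-1 scores were below the list median, as on nearly all unshared-call regions. Only 4 of 262 RC03 and 6 of 277 RC04 peaks there lay above it, so no contrast can be read from the 5.

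The 5 regions with the highest-ranked unshared CFP-1 peaks had mean H3K4me3 ranks of 41.3, 61.1, 37.7, 41.6 and 66.8, in the order given here. The highest CFP-1 rank, 56.1, belonged to an RC04 peak of score 15.1 (9194573 to 9194742) at an H3K4me3 region of 226 bp on IV (9194631 to 9194856), with H3K4me3 scores of 7.54 and 4.36. On V (10788842 to 10788975), an RC03 peak of score 14.4 covered all 134 bp of a region with H3K4me3 scores of 13.1 and 8.37. RC04 peaks of score 14.0 and 13.8 met the edges of regions on I (2687747 to 2687978) and III (13423576 to 13423878) by 46 and 41 bp, and the fifth was an RC03 peak of score 13.9 on I (8101865 to 8102405).

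The widest regions were 4017 bp on I (9907166 to 9911182), 3333 bp on V (19308173 to 19311505) and the 3273 bp region on II already described. The first had H3K4me3 scores of 50.5 and 39.3 and 1 CFP-1 peak, of score 6.84 in RC03. The second had H3K4me3 scores of 24.6 and 22.8 and 2 CFP-1 peaks, both in RC04, and its nearest CFP-1 region was 46613 bp away. The most weakly marked regions were on II (6486601 to 6486778), IV (6792050 to 6792185) and V (13047542 to 13047773), with H3K4me3 scores between 1.75 and 3.24 and CFP-1 scores of 5.31, 2.37 and 8.32.

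At the limit of the rule, the smallest overlaps were 1 bp on X (9743284 to 9743470), 2 bp on III (4454689 to 4454973) and 3 bp at a pair of regions on X (2519900 to 2520590 and 6818369 to 6819556). Their CFP-1 scores were 6.07, 2.37, 2.43 and 7.14, and their mean H3K4me3 ranks 30.4, 39.2, 39.5 and 63.9. Just outside, a CFP-1 peak touched without overlap the H3K4me3 regions on IV (2320221 to 2320635) and X (12843239 to 12843602), and lay 1 bp from one on III (5835962 to 5836345). There the CFP-1 scores were 7.32, 2.20 and 5.06, and the mean H3K4me3 ranks 54.0, 62.6 and 48.4. An overlap of 10 bp or less was found in 10 of the 511 regions and of 100 bp or less in 157.

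The set depended on the lower end of the CFP-1 lists. With only the higher-scored 50% of each CFP-1 list, 516 H3K4me3 regions held an unshared CFP-1 peak, a similar number, but only 10 of them were among the 511. The others held a CFP-1 region in the full lists. The set chosen in this way had a median H3K4me3 rank of 65.1, again between CFP-1-free (45.5) and shared-call regions (83.5).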

How the data were processed

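Chromatin immunoprecipitation and sequencing gave 4 deposited peak lists, 1 per sample. The authors aligned reads with BWA to ce10 and called peaks with MACS2 2.0.10, per the submitters' processing notes; the control, duplicate handling and threshold were not stated. Each deposited peak has a −log10 score, from a p-value or a q-value, without read counts, so depth and its precision are unknown. Peak names carry a larval stage; the labels' late embryo was followed. Scores were ranked within each list. Chromosome length was taken as the last peak end. Members and lists were chosen with earlier results of these data known. Regions were named by a fixed rule: 5 by H3K4me3 rank, 5 by CFP-1 rank, 3 widest, 3 lowest, 3 on each side of the overlap limit, and 5 with unmatched peaks of both lists. Intervals are exact binomial (Clopper-Pearson), 95%, and cover counting error only. Differences between classes were tested over the 2 H3K4me3 lists by exact sign-flip permutation. Overlaps were checked with bedtools 2.31.1 (511 regions) and tested on simulated data. Sequence, genes and transcript starts were not analysed, since the reference used here is a gene table of WBcel235 and the peaks are in ce10. Computations used scipy 1.17.1, pandas 2.3.3 and numpy 2.4.6 in Python 3.11.15, with figures from matplotlib 3.10.9.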

Additional observations from a re-analysis of the deposited data

How the results depend on the processing

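Of 50 values under alternative settings, 41 stayed within the set limits, 9 moved and 0 reversed. With the higher-scored 50% of each CFP-1 list, only 10 of the 511 regions remained. Values of that setting counted among the 41 describe a largely different set and are no check on the 511. The limits were a factor of 1.5 for a count, the 95% exact interval for a share, 1 SD between both lists for the CFP-1 rank and for the blocked value, and the direction against both other classes for the H3K4me3 rank and the width. In each setting the unshared-call regions had a median H3K4me3 rank and peak width between those of CFP-1-free and shared-call regions. Their number was 769 with H3K4me3 intervals of either list and 234 with the higher-scored 50% of the H3K4me3 lists, against 511. It was 342 with peaks merged over gaps of up to 500 bp, 646 to 680 with 1 H3K4me3 list left out, and 487 where 50% of the shorter interval had to overlap, of which 379 were among the 511. The median CFP-1 rank was 17.4. By construction it was 56.1 with the higher-scored CFP-1 peaks, where the share on X was 15.3% against 19.6%. It was 18.0 with H3K4me3 intervals of either list, 18.6 with the higher-scored H3K4me3 peaks, 19.3 with the stricter overlap, 18.97 with merging over 500 bp, and 17.3 to 18.0 with 1 H3K4me3 list left out. Pooled over regions called in 1 CFP-1 list, the H3K4me3 rank in the same-numbered minus the other list had a median of -1.36. The median RC03 minus RC04 difference in regions called by RC03, less that in regions called by RC04, was -2.504. Both values were below 0, but they are unlike measures on different scales. The pooled value is counted among the 41, although its closeness to the other is no check of robustness. Leaving out a CFP-1 list leaves no CFP-1 region, so no value can be given. Depth is unknown, so a missing peak is not a lack of binding.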

Other observations

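Unshared CFP-1 calls were also found at H3K4me3 intervals called in 1 list only. Of 4808 such intervals, 680 (14.1%, 95% exact binomial interval 13.2 to 15.2%) overlapped a CFP-1 region, and 258 (5.37%, 4.75 to 6.04%) overlapped a CFP-1 peak but no CFP-1 region. In 113 of the 258 (43.8%, 37.7 to 50.1%) the CFP-1 peaks came from the list with the same number as the H3K4me3 list, in 144 (55.8%, 49.5 to 62.0%) from the list of the other number, and in 1 from both. CFP-1 peaks that lay on such an interval but on no H3K4me3 region and in no CFP-1 region had median scores of 5.04 in RC03 (138 peaks) and 4.26 in RC04 (86 peaks).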
